A study of Mus musculus with 14 samples.

Results

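The peaks described here were listed H3K27me3 peaks with reads in control neuron cultures and a listed value of 0 after NeuID knockdown. Here they were not tested against input. They were chosen by 2 measured values of the authors' table, a knockdown mean equal to 0 and a control mean above 0, so the loss itself is a description and carries no test. There were 794 such peaks of 23668 listed, or 3.35% of the list. The reverse condition, control listed at 0 and knockdown above 0, held for 777 peaks. A set of 18000 comparison peaks had both group means above 0 and an overall mean in the range of the members.

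H3K27me3, trimethylation of lysine 27 on histone H3, was mapped by ChIP-seq, the sequencing of DNA pulled down with an antibody, in wild-type primary hippocampal neurons from embryos of CD1 mice. NeuID is a long noncoding RNA, and it was knocked down with a gapmer, a short modified oligomer that pairs with an RNA and leads to its cleavage. Control cultures received a negative control gapmer, so both groups had been exposed to an oligomer and to the nanoparticles that carried it. The cultures were made from pooled embryos of mixed sex and can hold glial cells beside neurons. Each group had 6 ChIP libraries and 1 input library by the labels, and the sources used here do not tie the libraries to separate litters.

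H3K27me3 is laid down by Polycomb repressive complex 2 through its catalytic subunit EZH2. The mark often forms broad domains over the CpG-rich starts of silent developmental genes, and in neurons it covers many genes of other lineages. Weak and narrow peaks outside such domains are also listed in most H3K27me3 maps. Among marker genes, a listed peak lay at the start of 1 of 10 neuronal genes (Slc17a7), 4 of 8 genes of the oligodendrocyte lineage (Olig1, Olig2, Sox10 and Pdgfra), 0 of 6 astrocyte genes, 0 of 5 microglial genes and 2 of 4 endothelial genes (Cldn5 and Flt1). A member lay at the start of 0 of these genes.

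The sequence at the centre of a few members is shown first, because place and base composition are described for all of them below. The first 3 are the members with the highest control mean, the next pair are the strongest at promoters of protein-coding genes, and Hes1 is a gene the study singled out. The last pair have the highest and the lowest repeat-masked share among the 20 strongest members. Each line gives 150 bases of the mouse assembly GRCm38 (mm10) in 5′ to 3′ order, with every CG dinucleotide in capitals.
Member overlapping a Topaz1 exon, chr9:122799045-122799194, plus strand: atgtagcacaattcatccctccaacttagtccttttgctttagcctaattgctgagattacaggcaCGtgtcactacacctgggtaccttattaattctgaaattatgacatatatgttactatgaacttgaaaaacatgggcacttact
Member overlapping a Prdm1 exon, chr10:44456419-44456568, plus strand: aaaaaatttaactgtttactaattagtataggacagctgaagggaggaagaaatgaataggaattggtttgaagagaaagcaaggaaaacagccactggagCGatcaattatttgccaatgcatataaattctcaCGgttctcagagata
Fezf1 flank, chr6:23241892-23242041, plus strand: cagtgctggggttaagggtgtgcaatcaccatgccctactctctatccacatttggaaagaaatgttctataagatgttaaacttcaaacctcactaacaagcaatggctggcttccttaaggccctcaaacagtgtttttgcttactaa
Glp1r promoter, chr17:30900600-30900749, plus strand: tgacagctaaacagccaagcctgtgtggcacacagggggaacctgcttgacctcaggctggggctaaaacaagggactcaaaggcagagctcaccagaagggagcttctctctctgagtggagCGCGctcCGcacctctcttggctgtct
Asic2 promoter, chr11:81967698-81967847, plus strand: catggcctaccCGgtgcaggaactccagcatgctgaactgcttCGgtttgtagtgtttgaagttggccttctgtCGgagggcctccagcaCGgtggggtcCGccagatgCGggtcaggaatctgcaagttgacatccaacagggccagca
Hes1 flank, chr16:30068272-30068421, plus strand: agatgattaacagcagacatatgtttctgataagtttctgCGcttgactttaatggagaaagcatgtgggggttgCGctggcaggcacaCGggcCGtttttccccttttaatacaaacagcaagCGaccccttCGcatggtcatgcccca
G6pc flank, highest repeat-masked share, chr11:101379977-101380126, plus strand: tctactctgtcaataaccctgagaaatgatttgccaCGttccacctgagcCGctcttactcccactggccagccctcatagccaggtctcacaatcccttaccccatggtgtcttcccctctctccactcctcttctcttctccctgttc
B230214G05Rik flank, lowest repeat-masked share, chr15:88250623-88250772, plus strand: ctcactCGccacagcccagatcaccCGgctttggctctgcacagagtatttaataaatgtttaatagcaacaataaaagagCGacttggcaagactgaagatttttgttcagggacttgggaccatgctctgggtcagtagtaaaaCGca

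These windows held between 0 and 6 CG dinucleotides, the 0 being that of the Fezf1 flank and the 6 those of the Asic2 promoter and the Hes1 flank. The Topaz1 and Prdm1 windows, which lie beside the exons that their peaks overlap, were the richest in A and T of those shown.

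The authors' means could be resolved into reads per library, which showed how empty the members were in the knockdown. Normalized reads are reads multiplied by a scaling factor of their library, and a group mean that came to no more than 1 normalized read was listed as 0 on the log2 scale. The overall mean weighted the control and knockdown means as 6 libraries to 5, so 1 of the 6 knockdown libraries did not enter the table. In all 19578 peaks with an overall mean up to that of the strongest member (82.7% of the list), exactly 1 combination of whole reads per library gave the group sums, with a largest deviation of 7.5e-13 normalized reads. The libraries are known by group but not by replicate number, and are called C1 to C6 and K1 to K5 in the order of what 1 read was worth, from 0.811 to 1.10 normalized reads for control libraries and from 0.825 to 1.31 for knockdown libraries. If the authors subtracted input reads, which was not stated, these are the reads that were left.

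Of the 794 members, 321 (40.4%) had no read in any of the 5 knockdown libraries. Another 360 (45.3%) had reads in 1 knockdown library, 101 (12.7%) in 2 and 12 (1.51%) in 3, and 0 had reads in 4 or 5. In the reverse set, 257 of 777 peaks (33.1%) had no read in any of the 6 control libraries. In all, the members held 1314 knockdown reads against 50943 control reads. For a peak not chosen for its 0, a count of 0 reads allows up to 3 reads over the 5 libraries. That is a floor of 0.665 normalized reads per library. The control means of the members without a knockdown read were 7.5998-fold to 38.6-fold this floor, with a median of 14.95-fold. The floor covers counting error only and leaves out the spread between libraries. These members were chosen for their 0, so the ratios describe them and do not bound the loss.

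The knockdown reads that remained at members were not spread evenly over libraries. K1 held 466 reads and K2 held 313 reads over the 794 members, K3 held 253, K4 held 131 and K5 held 151. K1 and K2 together gave 59.3% of the knockdown reads at members and 34.9% of those at comparison peaks. The rule limits normalized reads, and 1 read was worth 0.825 in K1 and 1.31 in K5. A member could therefore keep more reads of K1 than of K5, which in part fixes these shares. In normalized reads the means per member were 0.484, 0.388, 0.360, 0.214 and 0.248 in K1 to K5. Across the resolved peaks the normalized reads of K1 and K2 had a Pearson correlation of 0.30, while all other knockdown pairs lay between -0.04 and 0.13 and control pairs between 0.04 and 0.18. These correlations are across peaks that share libraries, and are given as a description. They leave out the strongest peaks and cover 82.7% of the list. That cut was made on the mean of the same libraries, which can lower correlations, and its effect was not tested. Leaving K1 and K2 out and applying the same rule to the resolved peaks gave 1322 members, of which 709 were among the 794. That is 53.6% of the new set and 89.3% of the original one. Leaving out single libraries gave 1636 members without K3, 1244 without K4, 1229 without K5, 1018 without K1 and 953 without K2, and 794 without any 1 of the control libraries. The control result could hardly differ, because the rule asks only for a control mean above 1 normalized read and the lowest was 4.06.

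The control side of the members varied widely between libraries. The control mean of a member lay between 2.02 and 4.68 on the log2 scale, with a median of 3.27 and quartiles of 2.96 and 3.56. All 6 control libraries had reads in 354 members (44.6%), 5 libraries in 250 (31.5%), 4 in 144 (18.1%), 3 in 37 (4.66%) and 2 in 9 (1.13%). The coefficient of variation over the 6 control libraries had a median of 88.6% in members and 86.1% in comparison peaks weighted to the same control means. The control library with the most reads gave a median of 38.6% of a member's control level, against 38.5% in the weighted comparison peaks. At equal control level, the members were thus spread over the control libraries much as other peaks were, with all 6 libraries showing reads in 48.3% of the weighted comparison peaks. This weighting was chosen after the reads had been resolved.

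**Figure D1:**
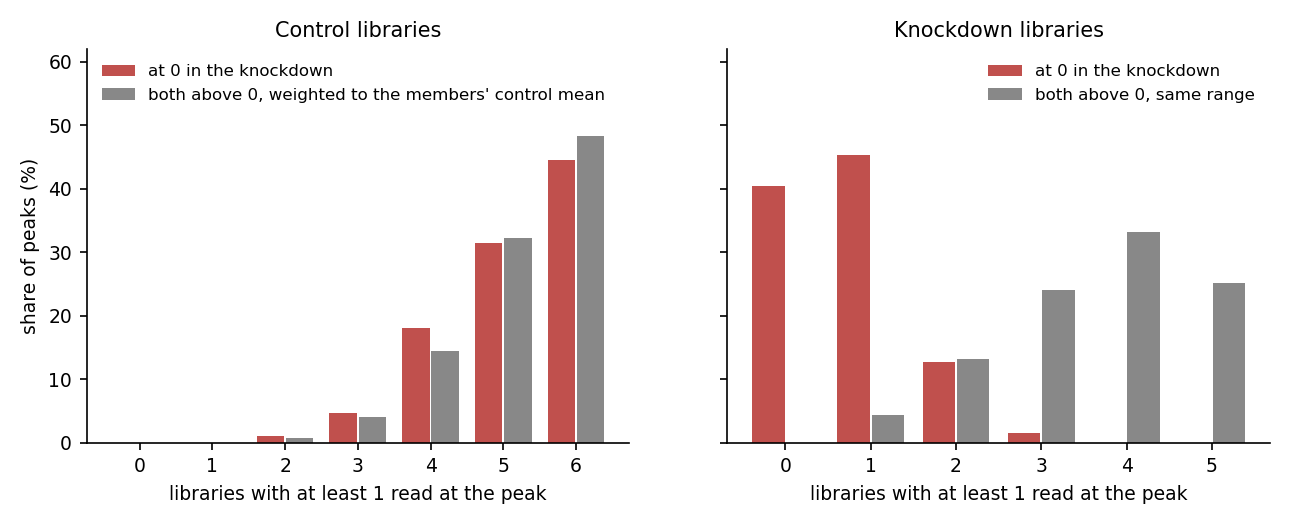
Share of peaks (%) by the number of libraries with at least 1 read, in the 6 control libraries (left) and the 5 knockdown libraries (right), for the 794 members (red) and for peaks with both groups above 0 (grey; on the left weighted to the members' control mean). The control profiles are close, with reads in all 6 libraries at 44.6% of members and 48.3% of the weighted peaks, while 40.4% of members have no read in any knockdown library.

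The lowest control library lay above the highest knockdown library in 247 members (31.1%), and the groups overlapped in the other 547. Over all 19578 resolved peaks the control stood wholly above the knockdown in 1.69%. The rule used the same contrast, so nothing is read from that difference. In the reverse set, the lowest knockdown library lay above the highest control library in 179 of 777 peaks (23.0%).

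The member with the highest control mean lay over a coding exon of Topaz1 (chr9:122798674-122799564), a gene of germ cells, and 5.97 kb from the start of Tcaim, which encodes a mitochondrial protein of T cells. Its 6 control libraries ranged from 15.5 to 41.9 normalized reads with a median of 24.6 (25.7 ± 9.49, SD, n = 6), and all 5 knockdown libraries had 0 reads. Every control library was therefore high at this peak, and the control mean was 38.6-fold the floor of 3 reads. A member of 824 bp lay over a coding exon of Prdm1 (chr10:44456082-44456905), a transcriptional repressor of B and germ cell fate. Control libraries there ran from 10.7 to 46.3 with a median of 22.3 (24.8 ± 13.0, SD, n = 6), and the knockdown had 4 reads in K1 and 0 in K2 to K5. The groups did not overlap, since the 4 reads came to 3.30 normalized reads. The third lay 5.97 kb from the start of Fezf1 (chr6:23241536-23242396), a forebrain transcription factor. It gave the most even control values of the first 6, from 12.6 to 30.0 with a median of 26.2 (23.6 ± 6.94, SD, n = 6), and 0 reads in every knockdown library.

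The next 3 members were less even in the control. A member in an intron of Erg (chr16:95584249-95585039), an endothelial and blood transcription factor, had control values from 0.927 to 36.4 with a median of 24.8 (23.3 ± 12.6, SD, n = 6) and 1 read in K4. One control library, C2, had a single read there and overlapped the knockdown. An intergenic member 15.02 kb from the long noncoding gene AC119181.1 (chr18:81834338-81834999) ranged from 7.74 to 36.1 in the control with a median of 25.1 (23.1 ± 12.0, SD, n = 6), with 1 read each in K2 and K3. Control libraries all lay above the knockdown. Between 7.30 and 55.2 normalized reads, with a median of 17.2 (22.0 ± 17.3, SD, n = 6), were found in the control at a member 12.1 kb from G6pc (chr11:101379670-101380432), the glucose-6-phosphatase of liver. Its highest value came from C6 and the next was 24.2, while the knockdown had 0 reads.

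**Figure D2:**
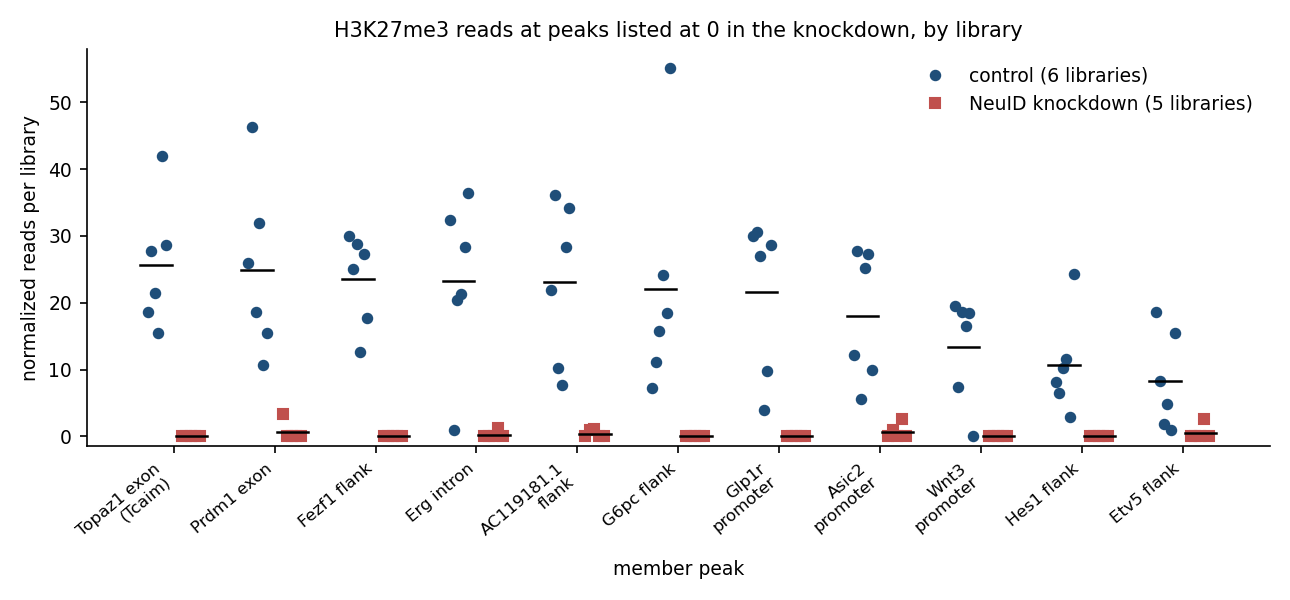
Normalized reads per library (y axis) at the 6 members with the highest control mean, 3 promoter members and the members near Hes1 and Etv5, with the 6 control libraries as blue circles, the 5 knockdown libraries as red squares and group means as black lines. Knockdown values stay at or below 3.30 normalized reads, while control values range from 0 at Wnt3 to 55.2 at the G6pc flank.

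The limit at 1 normalized read divided peaks with nearly equal knockdown values. Just inside it, members near Shprh, Hmx3 and Galr1 each had 6 reads in K1 and 0 in the other knockdown libraries, a mean of 0.991 normalized reads. Just outside it, peaks near n-R5s213 and Vmn1r50 each had 1 read in K3 and 3 reads in K4, a mean of 1.00 normalized reads, and a peak near Mroh4 had 1 read in K3, 2 reads in K4 and 1 read in K5, a mean of 1.01. At the weak end of the control, a member 2.10 kb from Cyp2r1 (chr7:114565077-114565271) had a control mean of 4.06 normalized reads, with reads in 2 control libraries only (6 in C3 and 17 in C6). Members near Asxl3 (mean 4.37) and in an intron of Pecam1 (mean 4.43) were next, with reads in 3 and in 5 control libraries.

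Members became rarer as peaks became stronger, which the rule in part fixes. It caps the knockdown mean at 1 normalized read, so a strong member must draw nearly all its reads from the control. The same holds, with the groups exchanged, for peaks at 0 in the control. With peaks binned by overall mean in steps of 0.5 on the log2 scale, members made up 10.0% of peaks from 1.5 to 2 (113 of 1125), 7.07% from 2 to 2.5 (327 of 4628), 3.83% from 2.5 to 3 (268 of 6997), 1.33% from 3 to 3.5 (66 of 4962) and 0.678% from 3.5 up to the strongest member (12 of 1771). Of the weakest peaks, from 1 to 1.5, members were 8 of 94 (8.51%). Peaks at 0 in the control followed a steeper course, from 29.8% in that weakest bin and 15.4% in the next to 0.0565% in the last, where 1 such peak was listed.

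Members were short, and whether they were shorter than other peaks depended on how strength was held equal. Their median width was 352 bp (95% interval 342 to 362 bp), with quartiles of 285 and 426 bp, a lowest of 190 bp and a highest of 978 bp. The comparison peaks had a median of 394 bp and the peaks at 0 in the control one of 306 bp. When comparison peaks were weighted to the members' distribution of overall means, their median was 328 bp and members were 24 bp wider. When they were weighted to the members' control means it was 454 bp, and members were 102 bp narrower, while the comparison peaks so weighted held a median of 30 knockdown reads and the members 1. Within bins of the overall mean the members' median was above that of comparison peaks throughout, for example 414.5 against 383 bp from 2.5 to 3 and 565.5 against 492 bp from 3 to 3.5. Peaks at 0 in the control were also wider than comparison peaks in these bins, at 397 and 563 bp. From 1.5 to 2 they were narrower, at 244 against 253 bp. A width of 1 kb was reached by 0 members, 28 of the 18000 comparison peaks (0.156%, or 0.0241% after weighting by the overall mean) and 0 of the 777 peaks at 0 in the control.

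**Figure D3:**
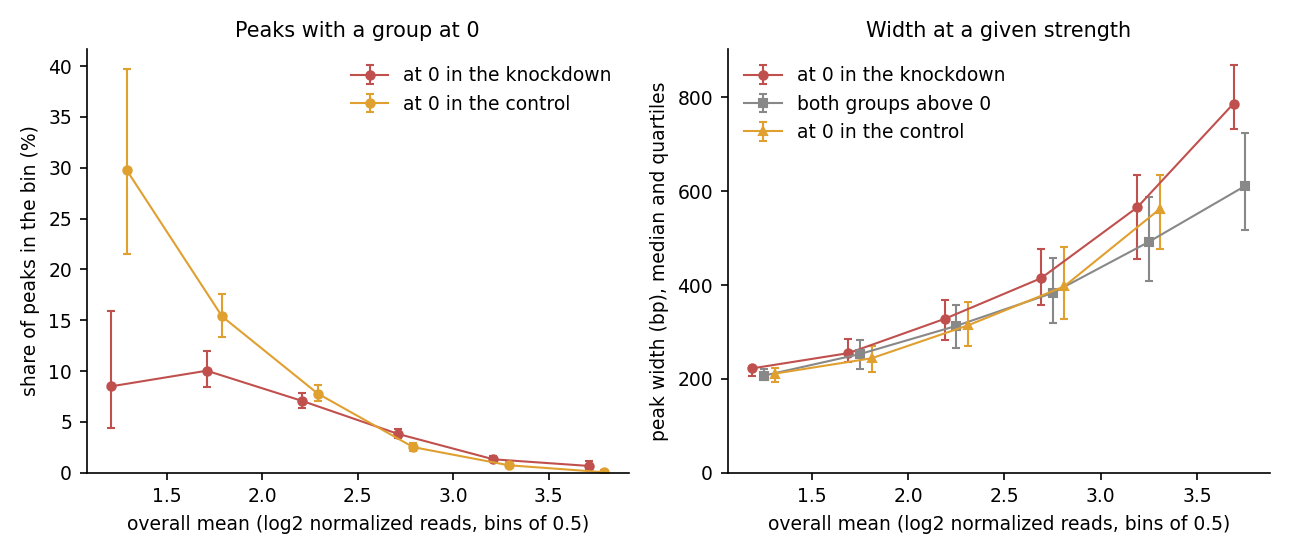
Left, share of peaks (%, with 95% Wilson intervals) listed at 0 in the knockdown (red) or in the control (orange) in bins of the overall mean (log2 normalized reads). Right, median width (bp, bars to the quartiles) of members (red), comparison peaks (grey) and peaks at 0 in the control (orange; bins with at least 8 peaks). Members fall from 10.0% of peaks to 0.678%, a fall that the rule in part fixes. At a given overall mean they are wider than comparison peaks, by 414.5 to 383 bp from 2.5 to 3. Peaks at 0 in the control have a median of 397 bp in that bin.

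Wider members carried more control reads. The 241 members under 300 bp had a median of 46 control reads, the 294 from 300 to 399 bp had 59, the 224 from 400 to 599 bp had 75 and the 35 of 600 bp or more had 118. Reads in all 6 control libraries were found in 26.97% of the narrowest and 91.4% of the widest of these classes. The share of members without any knockdown read was 37.8%, 41.5%, 42.4% and 37.1% in the same order, so it did not follow width. The 3 widest members lay in an intron of Otop2 near Otop3 (978 bp, chr11:115329910-115330887), 11.9 kb from the apoptosis gene Pmaip1 (956 bp, chr18:66470436-66471391) and at the Topaz1 exon (891 bp). The Otop2 member, in a pair of proton channel genes, had 0 reads in the knockdown and control values from 0 in C5 to 35.3 with a median of 22.5 (21.6 ± 12.1, SD, n = 6).

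Members lay mostly between and within genes rather than at gene starts. Of the 794, 410 were intergenic (51.6%), 280 intronic (35.3%), 38 over coding exons (4.79%), 18 over other exons (2.27%) and 48 within 1 kb of a gene start (6.05%). The promoter share was 10.8% in comparison peaks, 8.40% in comparison peaks weighted to the members' overall mean and 7.46% in peaks at 0 in the control. The 95% interval of the members' promoter share, 4.59% to 7.92%, lay below the first 2 of these values and included the third. Weighted to the members' control mean instead, comparison peaks had a promoter share of 12.2%, farther above that interval. Where only weighting is named, here and below, the overall mean was used. Among all listed peaks 15.1% were at promoters. The intergenic share was 46.1% in comparison peaks and 47.9% after weighting, the latter just below the members' interval of 48.2% to 55.1%, and the intronic share was 33.3% and 35.2%, both inside the members' interval of 32.0% to 38.7%. Peaks share libraries and neighbouring regions, so these intervals cover counting error only.

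**Figure D4:**
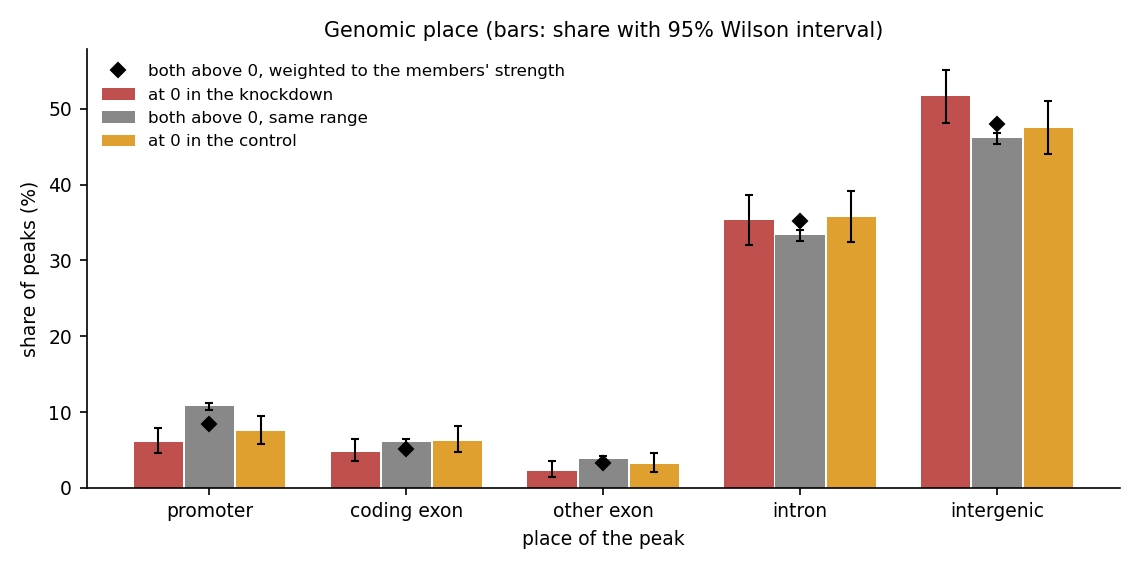
Share of peaks (%, with 95% Wilson intervals) by genomic place for the 794 members (red), 18000 comparison peaks (grey) and 777 peaks at 0 in the control (orange), with comparison peaks weighted to the members' overall mean as black diamonds. Promoters hold 6.05% of members, 10.8% of comparison peaks, 8.40% after weighting and 7.46% of the peaks at 0 in the control.

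The distance to the nearest gene start followed the same order. Members lay a median of 17.7 kb away (95% interval 15.4 to 19.8 kb), comparison peaks 12.7 kb, weighted comparison peaks 15.2 kb and peaks at 0 in the control 15.6 kb. With weighting by the control mean, comparison peaks lay 11.3 kb away. To the nearest protein-coding gene the medians were 48.5 kb for members, 33.3 kb for comparison peaks and 41.0 kb after weighting. With the control mean as weight the last was 28.3 kb. The nearest gene was protein-coding for 38.8% of members (95% interval 35.5% to 42.2%), 43.8% of comparison peaks and 41.0% after weighting, the last inside the members' interval. For 18.01% of members and 16.6% of comparison peaks it was a lincRNA, a long intergenic noncoding RNA gene. Where a member lay inside a gene, that gene had a median length of 109 kb, against 78.4 kb for comparison peaks and 91.1 kb after weighting.

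At promoters of protein-coding genes there were 27 members (3.40%), against 7.13% of comparison peaks and 5.15% after weighting. The strongest lay 0.828 kb from the start of Glp1r (chr17:30900360-30900989), the receptor of the gut hormone GLP-1, at the window printed above. Control values there ran from 3.87 to 30.6 with a median of 27.8 (21.6 ± 11.7, SD, n = 6), with 0 reads in the knockdown. C4 and C5 were low at 3.87 and 9.76 and the other 4 control libraries lay at 26.96 or more. Next came the promoter of Asic2 (chr11:81967357-81968188), an acid-sensing ion channel of neurons, with control values from 5.58 to 27.8 and a median of 18.7 (17.99 ± 9.87, SD, n = 6), and with 1 read in K2 and 2 in K4.

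The other 6 named promoters were weaker. Myo5b (chr18:74439663-74440319), a motor protein of membrane traffic, had a control mean of 15.2 ± 10.2 normalized reads (SD, n = 6) and 2 and 3 reads in K1 and K2. Wnt3 (chr11:103775093-103775446), a secreted signalling ligand, had 13.4 ± 7.94 (SD, n = 6) with 0 reads in C6 and in every knockdown library. Those at Tmem45a (mean 13.1), Sez6l (12.9), Dusp26 (12.2) and Rimbp2 (12.0) had 4, 1, 3 and 4 knockdown reads in total. Sez6l and Rimbp2 are neuronal genes, of a membrane protein and of a presynaptic scaffold, and Dusp26 encodes a phosphatase. At Tmem45a the groups overlapped, with 0 reads in C4 and C5, while at Sez6l, Dusp26 and Rimbp2 every control library lay above every knockdown library.

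A gene start was covered by 11 members (1.39%, 95% interval 0.775% to 2.46%), against 2.60% of comparison peaks, 1.61% after weighting by the overall mean and 0.901% of peaks at 0 in the control. The weighted share lay inside the members' interval. Named after their values were seen, protein-coding genes among them included Tmem45a, Dusp26, Rimbp2, Rspo4, Spata31, Irf8 and Phactr1. Rspo4, a Wnt signal enhancer, and Irf8, a microglial and blood cell transcription factor, had 26 and 30 CG dinucleotides in their central 300 bases, where the median member had 3. The Irf8 start (chr8:120736267-120736591) had a control mean of 9.51 ± 6.77 normalized reads (SD, n = 6), with reads in 5 control libraries and 0 reads in the knockdown.

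In base composition the members stood a little below other peaks. Median GC content was 46.9% in members (95% interval 46.5% to 47.5%), 48.6% in comparison peaks, 47.9% after weighting by the overall mean and 47.5% in peaks at 0 in the control. After weighting by the control mean it was 49.0% in comparison peaks. The ratio of observed to expected CG dinucleotides had a median of 0.177 in members, 0.198 in comparison peaks and 0.186 after weighting, the last inside the members' interval of 0.164 to 0.189. Weighting by the control mean gave 0.206, outside that interval. Promoter members had a median ratio of 0.251 and promoter comparison peaks 0.359, at 50.7% and 54.1% GC. The repeat-masked share had a median of 12.8% in members (interval 11.5% to 14.9%) and of 11.0% and 11.5% in comparison peaks before and after weighting. Of the members, 86 (10.8%) were masked over at least 50% of their length, against 8.99% of comparison peaks and 11.0% after weighting.

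Short sequence patterns, searched on both strands in the central 300 bases, were about as frequent in members as elsewhere. CA repeated 6 times was found in 3.15% of members and 3.16% of comparison peaks, and in 3.15% of all listed peaks. GA repeated 6 times was found in 1.39%, 1.28% and 1.29%. A G-quadruplex pattern, 4 runs of GGG with 1 to 7 bases between them, was found in 6.80%, 7.86% and 9.34%. The pattern can include other repeats of G, and a match is a run of letters only.

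Members were less often close to another listed peak than comparison peaks were, and about as often once those were weighted by the overall mean. Another listed peak lay within 5 kb of 226 members (28.5%), of 39.2% of comparison peaks, of 28.6% after weighting by the overall mean, of 48.0% after weighting by the control mean and of 23.0% of the peaks at 0 in the control. Single bins of the overall mean differed in direction. The share was 18.6% of members against 18.2% of comparison peaks from 1.5 to 2 and 25.7% against 23.1% from 2 to 2.5. It was 30.6% against 34.6% from 2.5 to 3, 42.4% against 51.9% from 3 to 3.5 and 91.7% against 68.3% above that (12 members). The median gap to the nearest peak was 19.97 kb for members, 10.4 kb for comparison peaks and 18.9 kb after weighting by the overall mean. In 6 cases 2 members lay within 5 kb of each other. They were a pair at the pseudogene Gm4052 (chromosome 13), a pair at Rspo4 (chromosome 2), a pair 248 bp apart at the pseudogene Gm21957 (chromosome 7), a pair near Tnf (chromosome 17), and 2 successive gaps among 3 members at the lincRNA Gm48956 (chromosome 15).

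The rule did not use the peaks neighbouring a member, 455 in number within 5 kb, of which 11 (2.42%) were members themselves, 5 were at 0 in the control and 439 had both groups above 0. Members were 2.13% of the neighbours of comparison peaks. Of the 439, 254 (57.9%, 95% interval 53.2% to 62.4%) had the lower mean in the knockdown, against 54.5% of the neighbours of comparison peaks and 50.8% of all peaks with both groups above 0. Their median difference, knockdown minus control, was -0.13 on the log2 scale (interval -0.25 to -0.04), against -0.10 for neighbours of comparison peaks and -0.09 for neighbours of peaks at 0 in the control. Among the 73 neighbours within 500 bp of a member, 38 (52.1%) were lower in the knockdown, with a median difference of -0.04 (interval -0.26 to 0.29). Neighbours lower by at least 1 log2 unit numbered 94 (21.4%) and those higher by as much 59 (13.4%), against 18.8% and 13.9% of the neighbours of comparison peaks.

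**Figure D5:**
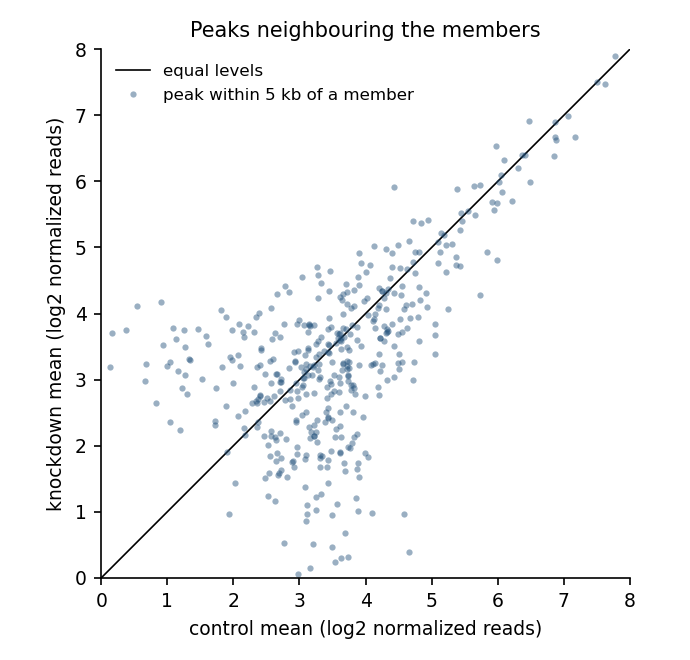
Knockdown mean against control mean (both log2 normalized reads, authors' means) of the 439 peaks within 5 kb of a member that had both groups above 0, with the line of equal levels. The points lie on both sides of the line, with 254 of the 439 below it.

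Single loci showed each of these situations. At the Fezf1 flank a domain of 2126 bp began 29 bp beyond the member and fell from 53.2 to 19.4 normalized reads between the authors' control and knockdown means. The wider and stronger Fezf1 domain next to it, 5798 bp, stood at 7.63 and 7.47 on the log2 scale. The domain of 3952 bp beside the Wnt3 promoter member, 279 bp away, stood at 118 and 98.96 normalized reads, and that beside the Glp1r member, 473 bp away, at 35.3 and 37.1. At Prdm1 a peak of 695 bp lay 166 bp from the member, and it was higher in the knockdown, 18.7 against 9.76. Near Topaz1 a peak 2.07 kb away went from 1.10 in the control to 9.16 in the knockdown, and near Neurog1 a peak 2.80 kb away went from 1.87 to 18.002. None of these differences between neighbours was tested.

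The members were scattered over many genes. They were nearest to 759 genes, 727 of which had 1 member, and 297 of the 759 were protein-coding. For 443 of the genes another nearest peak had both groups above 0, and for 309 every listed peak assigned to them was a member. Only 32 genes had 2 or more members, so most of the 309 had a single listed peak. The share of such single-peak genes among other genes was not counted. The 3 genes with 3 members were Gm12002, Mir692-2 and Gm48956. The members of the antisense gene Gm12002 lay within Cobl, which encodes an actin nucleator, and those of the microRNA gene Mir692-2 in introns of Grik3, which encodes a kainate receptor subunit. Those of the lincRNA Gm48956 were intergenic. At Gm48956 all 3 members (361, 408 and 392 bp) had 0 reads in every knockdown library, control means of 11.6 ± 6.73, 10.9 ± 10.2 and 10.5 ± 6.32 normalized reads (SD, n = 6) and control libraries that all had reads. Their repeat-masked shares were 32.1%, 74.8% and 81.1%, against a median of 12.8% over all members. A peak 59 bp from the middle one stood at 5.30 in the control and 9.28 in the knockdown. At Gm12002 the members had control means of 12.2, 8.98 and 6.69 and 0, 0 and 3 knockdown reads, and at Mir692-2 means of 12.4, 9.18 and 8.87 and 3, 3 and 4 knockdown reads. Counted by the gene they lay in, Skap1, an adaptor of T cells, held 4 members of its 30 peaks.

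By chromosome, members were 4.22% of members and comparison peaks together. The share was lowest on chromosome 12, at 3.30% (23 of 696, 95% interval 2.21% to 4.91%), and highest on chromosome 16, at 7.05% (36 of 511, interval 5.13% to 9.60%). The interval of chromosome 16 lay above the share over all chromosomes, and 20 chromosomes were looked at. Chromosome X, at 4.41%, lay near the middle.

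Developmental transcription factors are the classical targets of Polycomb repression. A fixed list of their families, among them Hox, Pax, Lhx, Nkx, Sox and Neurog, was nearest to 13 members (1.64%, 95% interval 0.959% to 2.78%). It was nearest to 1.93% of comparison peaks, 1.34% after weighting and 3.55% of all listed peaks. Transcription factor genes outside these families, such as Fezf1, Etv5, Twist2 and Prox1, also had members and are not in this count. The 13 lay near 12 genes, Lhx6 (2 members), Neurog1, Hes1, Pax8, Nkx3-2, Neurod2, Hoxb1, Six6, Nkx6-1, Olig2, Nkx2-5 and Nkx2-4, between 2.19 and 46.7 kb from the start. None of them was a promoter member. When each peak was given its nearest protein-coding gene instead, the share was 5.42% of members (interval 4.05% to 7.22%) and 6.45% of comparison peaks. The strongest within the listed families lay in an intron of Lhx6 (chr2:36100338-36100933), which directs the migration and fate of cortical interneurons. Its control values ran from 0 in C4 to 41.7 in C2 with a median of 9.99 (13.2 ± 14.7, SD, n = 6), with 2 reads in K1. The member 11.6 kb from Neurog1 (chr13:56263810-56264183), a neurogenic factor, had 0 to 36.5 with a median of 5.62 (11.7 ± 14.1, SD, n = 6) and 1 read in K4. In both the groups overlapped, and a single library (C2 at Lhx6, C1 at Neurog1) gave more than 50% of the control level.

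Hes1, a Notch target that keeps neural progenitors from differentiating, had a short member 3.84 kb from its start (chr16:30068225-30068468, 244 bp). All 6 control libraries had reads there, from 2.93 to 24.3 normalized reads with a median of 9.17 (10.6 ± 7.35, SD, n = 6). All 5 knockdown libraries had 0, and the control mean was 15.9-fold the floor of 3 reads. Nothing in this member was repeat-masked, and the nearest other listed peak was 31.6 kb away. Etv5, a transcription factor downstream of growth factor signalling, had 2 members, the only listed peaks assigned to it. The nearer one, 4.20 kb from the start (chr16:22443917-22444232), had control values from 0.976 to 18.7 with a median of 6.59 (8.35 ± 7.29, SD, n = 6) and 2 reads in K4. Its groups overlapped. The other, 26.7 kb away (chr16:22466415-22466645), had a control mean of 7.38 ± 6.61 (SD, n = 6) with 0 reads in 1 control library and in every knockdown library. Within 5 kb of Olig2 and Tcf7l2 there was no member. A member 15.1 kb from Olig2, which specifies oligodendrocytes, had a control mean of 8.64 ± 4.49 normalized reads (SD, n = 6), 2 reads in K3 and overlapping groups.

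Signalling ligands were nearest to 4 members (0.504%), against 90 of the 18000 comparison peaks. They were Wnt3a, Wnt3, Bmp4 and Fgf1, all secreted factors of tissue patterning or growth. Wnt3a (chr11:59293619-59294181) had 6.49 to 32.5 normalized reads in the control with a median of 8.80 (14.6 ± 11.1, SD, n = 6), and 1 read in K2 and 2 in K5. Bmp4 (chr14:46397763-46398114) had 2.78 to 15.8 with a median of 11.3 (10.9 ± 4.88, SD, n = 6) and 0 reads in the knockdown. At both every control library lay above the knockdown. Their neighbouring domains kept reads in the knockdown, the one 182 bp from the Wnt3a member at control and knockdown means of 63.2 and 28.0, and the one 122 bp from the Bmp4 member at 35.0 and 30.5.

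Axon guidance genes were nearest to 4 members (0.504%, against 0.372%), those of Efna5, Epha8, Ephb2 and Unc5a. Ephrins and Eph receptors are contact-dependent guidance cues, and Unc5a is a netrin receptor. The Efna5 intron member (chr17:62873763-62874136) had a control mean of 11.6 ± 4.94 normalized reads (SD, n = 6) and 4 and 1 reads in K1 and K4. That at the Epha8 promoter (chr4:136957453-136957702) had 11.3 ± 4.98 and 2 reads each in K2 and K4, and that in Ephb2 (chr4:136745313-136745607) 10.9 ± 13.1 with 0 knockdown reads. The Ephb2 member was uneven, with 36.4 in C6 and 0 in C4. Cadherins and synaptic adhesion genes gave 3 members (0.378%, against 0.539%), in Cdh4 (control mean 12.2), Cdh23 (11.0, with 5 reads in K2) and at the Pcdhb10 promoter (10.2). By the nearest protein-coding gene the share was 1.13% of members and 1.43% of comparison peaks.

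Potassium, sodium and calcium channel genes gave 9 members (1.13%, interval 0.597% to 2.14%), against 0.750% of comparison peaks and 0.655% after weighting. Other channel genes with a member, such as Asic2, are outside this list. The 9 were those of Scn4a, Cacna2d2, Kcnc2, Kcnh7, Kcna1, Kcnj12, Scn11a, Cacna1h and Scn10a, and 5 of the 9 had no knockdown read. The sodium channel gene of skeletal muscle, Scn4a (chr11:106349167-106349656), had 2.78 to 25.4 normalized reads with a median of 12.7 in the control (12.7 ± 9.40, SD, n = 6). Kcnc2 (chr10:112279049-112279509), a potassium channel of fast-spiking neurons, had 10.9 ± 7.05 with 0 reads in C2, and Cacna2d2 (chr9:107379301-107379729), a calcium channel subunit, had 11.0 ± 8.29. Knockdown reads numbered 0 at Scn4a and Kcnc2 and 2, in K1, at Cacna2d2.

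Glutamate, GABA and glycine receptor genes gave 5 members (0.630%, interval 0.269% to 1.47%), against 0.367%. They were Grik1, Grid2ip, Grin2a, Gria1 and Gabrb2, of which Grid2ip encodes a partner of a glutamate receptor and not a subunit. The Grik1 intron member (chr16:88111686-88112264) had 3.71 to 30.2 normalized reads in the control with a median of 15.1 (16.6 ± 10.3, SD, n = 6) and 5 reads in K1. Grid2ip had 11.8 ± 9.74 at its promoter, with 3 reads in K1, and Grin2a 7.51 ± 8.30, over a region that was 92.6% repeat-masked. Collagens gave 2 members, Col5a3 and Col11a1 (0.252%, against 0.200%), and olfactory, vomeronasal and taste receptors gave 4 (0.504%, against 0.744%), of which the Olfr1414 member had the highest control mean, 14.9 ± 5.88 (SD, n = 6). The glial and endothelial genes gave 2, Olig2 and Pecam1 (0.252%), against 18 of the 18000 comparison peaks. The unweighted comparison share lay inside the members' 95% interval in each of the 9 lists. After weighting to the members' overall mean it lay below that interval in 2 lists, at 0.258% for the receptors of glutamate, GABA and glycine and at 0.0629% (interval 0.0691% to 0.914%) for the glial and endothelial genes, which rest on 5 and 2 members. The lists were chosen with earlier results known, and a gene nearest to a peak need not be one that the peak acts on.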

How the data were processed

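H3K27me3 ChIP-seq of control and NeuID knockdown neurons was analysed from 1 table of 23668 peaks. According to the study's methods and the processing notes, the authors aligned reads to mm10 (Bowtie2), took broad peaks from MACS2 and made the table in DiffBind. The values deposited are log2 of mean normalized reads, for every library together and for the control and knockdown groups apart. How the reads were scaled, how peaks were merged and whether duplicate or input reads were removed is not given in the sources used here. The table also holds the authors' own comparison of the groups (fold change, p-value and FDR), which was not used. Columns of further samples left unused numbered 0.

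Group sums were resolved into whole reads times a factor per library, with a relative tolerance of 2e-14 plus 1e-12 normalized reads. Only the 19578 peaks up to the members' highest overall mean were searched. In simulated data every planted combination was found. Depth over these peaks was 99772 to 184645 reads per library, and totals of whole libraries were not analysed here. The table was planned as group means without values per library, so the values per library and the runs that leave out a library were added after seeing the data. No count model was fitted, because the members were chosen on the same contrast.

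All 23642 peaks on chromosomes lay inside GRCm38, and 26 lay on unplaced scaffolds (0 members). Genes came from GENCODE M21, with all gene types, and sequence and repeat masking from the RefSeq copy of GRCm38. Each peak took the first that applied of promoter (within 1 kb of a gene start), coding exon, other exon, intron and intergenic. The comparison was weighted to the members in bins of 0.25 of the overall or the control log2 mean. Shares have Wilson and medians order-statistic intervals, at 95%. Peaks are not replicates, so no p-value is given. The alternatives were members without a knockdown read, comparison peaks in the central 90% of strength, both weightings, autosomes, less repeat-masked peaks, other rules for promoters, genes and neighbours, and leaving out libraries.

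Named peaks were the 6 members with the highest control mean, the 3 widest, the 8 strongest at promoters of protein-coding genes, the 3 strongest of each gene list, those of genes with at least 3 members, those at the limits, and those at most 5 kb from Hes1, Etv5, Olig2 or Tcf7l2. Members, lists and rules were chosen with earlier results of these data known. Software was numba 0.67.0, SciPy 1.17.1, pandas 2.3.3, statsmodels 0.14.6, pysam 0.24.0, numpy 2.4.6 and matplotlib 3.10.9 under Python 3.11.15. Some items are not reported here.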

Additional observations from a re-analysis of the deposited data

Results flagged for a closer look

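At the member 12.1 kb from G6pc, control library C6 stood apart, with 55.2 normalized reads against 7.30 to 24.2 in the other 5 control libraries, a gap of 0.647 of the whole range, above the 95% critical value of Dixon's test. It was 1 of 20 groups of libraries looked at, and chance gives about 1 in 20.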

How the results depend on the processing

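Values below are members minus comparison peaks unless a count or a share of members is named. The members numbered 321 without any knockdown read and 1322 without K1 and K2, and between 794 and 1636 when each library was left out in turn (K1 1018, K2 953, K3 1636, K4 1244, K5 1229, and 794 for each control library), among peaks with resolved reads only. The rule asks little of the control, so the counts for control libraries could hardly change. The difference in control mean (0.48 log2) was 0.52 for members without a knockdown read, 0.68 against the central 90% of strength, 0.92 and 0.0058 with weighting by the overall and the control mean, and 0.27 to 0.51 on leaving out a library. The width difference (-42 bp) was -9, 24 (reversed), -102 and, without K1 and K2, -27 bp, and -56 to -36 bp on leaving out a library. Gene starts were 2548 bp farther after weighting by the overall mean and 15257 bp farther for protein-coding genes, against 5008 bp. GC (-1.67 points) became -0.976 after that weighting, -0.639 without K1 and K2 and -2.10 to -1.25 on leaving out a library, and the promoter share (-4.70 points) became -2.36 and -2.15. Weighting by the control mean widened both differences, with comparison peaks at 49.0% GC and a promoter share of 12.2%. The share with a neighbour (-10.7 points) was -3.91 in the central 90%, -0.186 and -19.5 with the weightings, -2.35 without K1 and K2 and -13.2 to -6.45 on leaving out a library. The repeat-masked difference (1.73 points) was 0 without K1 and K2.

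Of members without a knockdown read, 0% were in the collagen, olfactory and glial lists. With the nearest protein-coding gene, developmental transcription factors took 5.42% of members (6.45% of comparison peaks) and cadherins 1.13% (1.43%), and cadherins 0.126% within 50 kb. On leaving out a library, axon guidance took 0.183% to 0.504%, channels 0.550% to 1.14% and neurotransmitter receptors 0.241% to 0.688%. Apart from leaving out single libraries, 128 values kept their direction and moved by less than their interval or factor, 26 moved by more and 1 reversed; the cause was not tested. The runs on resolved reads and without K1 and K2 were chosen after seeing the data. No paired analysis was possible because the libraries are known by group and not by replicate number. Members had a median of 61 control reads over 6 libraries, as did comparison peaks weighted by the control mean.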
